A study of Mus musculus with 6 samples.

Results

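The probes described here measure exons of mouse long intergenic non-coding RNAs (lincRNAs) for which the authors' deposited value table holds a single strand. The array carried 3457 probes for 1729 such exons, and each probe is named by an exon number and a plus or minus sign. The value table holds 2601 of these probes. For 995 exons it holds both signs, for 123 exons none, and for 611 exons (35.3% of the exons on the array) only 1 sign, 236 of them plus and 375 minus. All 611 exons also had a probe of the opposite sign on the array, so the single strand is a property of the value table and not of the array's design. The files do not state whether the sign refers to the transcript or to the probe. Every exon probe carried the suffix P1, so agreement between several probes of 1 exon could not be examined. The exons are named here by number, without a gene name, position or sequence, because the files used here do not pair the numbers with any of these.

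LincRNAs are transcribed from the stretches between protein-coding genes. Most are made by RNA polymerase II, capped and spliced like messenger RNA, but they encode no known protein, are usually less abundant than messenger RNA, and are often restricted to a tissue. Brain is among the tissues richest in them, and studied members act on chromatin, on transcription of neighbouring genes or on other RNAs. A lincRNA comes from 1 strand of its exon, while RNA from the other strand may come from an overlapping antisense transcript or may be lacking, and a probe for each strand separates these cases.

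Total brain RNA came from male C57BL/6 mice aged 9 months. There were 3 wild-type (WT) samples and 3 samples of APP/PS1 mice, which carry transgenes for amyloid precursor protein and presenilin 1 and form amyloid plaques. Replicates are called biological in the labels, and the promoters that drive the transgenes are not given in the sources used here. RNA depleted of ribosomal RNA was copied by random priming and hybridised in 1 colour (Cy3), so that a level is the log2 fluorescence of a probe and not a count of molecules.

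Several features of the arrays touch every result below. WT replicates 2 and 3 differed by a scatter of 0.021 (log2) over 14029 bright rows, against 0.0524 to 0.0629 between the other replicates of a genotype. Repeated spots of 1 probe scattered by a median of 0.0738, more than WT replicates 2 and 3 did for all 13 bright probes printed 20 times. Their difference was thus smaller than the spot noise, but so was the bright-row scatter of the other pairs. Spot noise alone therefore does not set WT replicates 2 and 3 apart. Over the 81 bright probes of these exons their scatter was 0.063, against 0.073 for WT replicates 1 and 3 and 0.084 to 0.126 for the other pairs. WT replicates 2 and 3 were counted as 1 sample, so that n is 2 in WT and 3 in APP/PS1. All p-values measure the spread between these few samples. Scanner signals were used for 5 arrays, all except WT replicate 3. Slide 1 held the WT arrays with a scan and slide 2 those of APP/PS1, so the effects of slide and of genotype cannot be told apart. None of the 19 brain and blood marker genes in a fixed list had a probe that could be named here, so the tissue label was not checked. In bulk RNA, fewer cells of a type and less RNA per cell cannot be told apart either.

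On the scanned arrays, the strand in the value table gave clear signal and the opposite strand lay near the detection floor. The median processed signal of the 611 table probes was 63.8 and 60.7 on WT arrays 1 and 2 and 73.3, 83.0 and 81.8 on APP/PS1 arrays 1, 2 and 3. The median of the 611 opposite-strand probes was 3.8, 3.81, 4.51, 4.95 and 5.16 in the same order. On each array the opposite strands' median lay under the lowest signal that the scanner software marked as well above background, which was between 15.7 and 20.5.

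The exon-by-exon comparison was as one-sided as the medians. Of the 611 exons, 550 gave more signal on the table strand on all 5 arrays and the other 61 on 1 to 4 arrays. The mean excess of the table strand had a median of 3.63 (log2), it reached 4 or more in 275 exons (45.0%), and its range over exons was -0.68 to 12.79. For 532 exons the opposite strand was well above background on no array, for 75 on 1 array and for 4 on 2 arrays. How the authors filtered the table was not given in the sources used here. It kept few undetected probes (1052 of 48436 rows were well above background on no scanned array), so the dimness of the opposite strand is tied to how these exons were chosen and is a description, not a finding. For comparison, in the 995 exons with both strands in the table the brighter strand exceeded the dimmer by a median of 2.60 (log2), 31.4% exceeded it by 4 or more, and both strands were well above background on all 5 arrays in 505 exons. Probes differ in how well they bind their target, so a difference between the probes of 1 exon is not an exact ratio of transcripts.

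The table probes of these exons were dimmer than the array as a whole, and a few were among its bright probes. Their mean log2 level over the 6 samples had a median of 6.14, quartiles of 4.71 and 7.82 and a range of 2.41 to 14.66, and 220 of them (36.0%) lay above the median of all 48436 table rows, which was 7.05. Their median in single samples was 6.25, 6.20 and 6.18 in WT and 6.16, 6.15 and 6.13 in APP/PS1, a spread far below the range among exons. On WT arrays 1 and 2, 477 and 468 of the 611 were well above background, and on APP/PS1 arrays 1, 2 and 3, 491, 558 and 574 were. APP/PS1 array 1 thus lay close to the WT arrays and the other APP/PS1 arrays detected more of these dim transcripts. In all, 430 exons were well above background on all 5 arrays, 167 on 1 to 4 arrays and 14 on none.

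The 5 brightest exons kept nearly the same level in both genotypes. MM9LINCRNAEXON11231-, the brightest, had log2 levels of 14.79, 14.87 and 14.80 in WT and 14.50, 14.56 and 14.46 in APP/PS1. Its groups did not overlap, and it fell by 0.31 ± 0.07 (SE, log2; limma adjusted p = 0.0334). This call was lost without WT replicate 1 (limma adjusted p = 0.103), without any 1 of the APP/PS1 replicates (0.0857, 0.0705 and 0.0945) and in the scanner signals (0.0548). MM9LINCRNAEXON11545+ had 14.24, 13.93 and 13.90 in WT and 14.17, 14.13 and 14.13 in APP/PS1, and MM9LINCRNAEXON10444+ had 13.79, 14.02 and 14.15 in WT and 13.32, 13.98 and 13.65 in APP/PS1. The groups of both exons overlapped, and their changes of 0.07 ± 0.12 and -0.29 ± 0.23 (SE, log2) did not pass the threshold. MM9LINCRNAEXON11813+ had 13.79, 13.66 and 13.75 in WT and 13.62, 13.46 and 13.45 in APP/PS1, with a change of -0.24 ± 0.09 that did not pass (limma adjusted p = 0.105, or 0.0312 with a variance trend). MM9LINCRNAEXON11553- ranged more widely, from 12.98 to 13.39 in WT and from 12.46 to 13.38 in APP/PS1, and its change of -0.18 ± 0.31 did not pass either.

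Probes with a plus sign were somewhat dimmer than those with a minus sign. The 236 plus probes had a median log2 level of 5.81 and the 375 minus probes one of 6.34, and the minus median was higher in every sample, by 0.36, 0.57 and 0.54 in WT and by 0.66, 0.51 and 0.54 in APP/PS1. Well above background on all 5 arrays were 63.1% of the plus and 74.9% of the minus probes. Among probes detected on all 5 arrays the medians were closer, 7.05 for plus and 7.23 for minus. In the exons with both strands in the table, the 995 plus probes had a median of 6.15 and the 995 minus probes one of 6.26. Different exons carry the signs here, and no test across probes was made.

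The central comparison asked which of these exons differ between APP/PS1 and WT brain. In the value table, 72 of the 611 probes rose and 117 fell, while 422 missed the threshold, an adjusted p of 0.05 from limma, a linear model that pools the spread over probes, adjusted over all rows. The 189 calls were 30.9% of these probes, and percent called over all 48436 rows was 30.1, so these exons changed about as often as any row of the table. Rises over all rows were 14.2 percent and falls 15.9 percent. The median log2 change of the 611 probes was -0.09, with quartiles of -0.40 and 0.28, against -0.03 over all rows with quartiles of -0.33 and 0.29. Most changes were small, with 26 rises and 14 falls of at least 2-fold (3.66 and 1.97 percent of all rows did so). Under 1.5-fold were 86 of the 189 calls, beside 7081 of the 14593 calls over all rows.

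Counting samples instead of fitting them gave a similar picture. In 126 exons every APP/PS1 value lay above every WT value and in 198 exons below, together 53.0% of the 611, while 56.3 percent of all rows did not overlap. The count of calls dropped when the fit lost a sample. It was 105, 80 and 92 without APP/PS1 replicates 1, 2 and 3. Without WT replicate 2 or 3 it was 186 and 184, but these are averaged, so the fit lost no sample. Over all rows the 6880 rises and 7713 falls dropped too. They were 4485 and 4654, 3797 and 3623, and 3895 and 3768 without APP/PS1 replicates 1, 2 and 3. Without WT replicate 1 only 1 WT sample was left, and the median log2 change of these exons was -0.08.

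For the 5 scanned arrays, 562 of the 611 probes passed the filter of at least 2 arrays well above background, which a probe could pass through 1 genotype alone. Of these, 83 rose and 104 fell, together 33.3%, where 32.5 percent of 45630 probes were called over the whole array (18 percent rises and 14.5 percent falls). Of the 189 calls in the table, 181 were tested there, 167 were called in the same direction and 0 in the opposite one. The balance of rises and falls in the scanner signals depended on the setting. It turned to 65 rises and 63 falls without APP/PS1 replicate 1, 50 and 42 without APP/PS1 replicate 2, and 67 and 64 with no filter on dim probes. Rises were then 50.8%, 54.3% and 51.1% of these exons' calls. Over all probes they were 58.6%, 59.4% and 58.5%, beside 55.4% in the main fit. Without APP/PS1 replicate 3 there were 47 rises and 52 falls, 47.5% rises beside 58.7% over all probes. Without WT replicate 1 or 2 only 1 WT array was left, and the median log2 change of these exons was -0.01 and -0.07. Rises were 38.1% of the calls in the table and 44.4% in the scanner signals, and other scalings of these gave 35.2% (median centring) and 35.3% (quantile normalization). Over all probes these scalings gave 42.7% and 46.8%, so the share fell over the whole array too. A further setting, called normexp here, took the median spot signals in place of the processed ones and corrected their background with a model. It added an offset of 50, of the size of many of these probes' signals. The offset by construction shrinks the log2 changes of dim probes, but normexp as a whole also reversed some of them. Normexp gave 21.8% (19 rises and 68 falls), beside 43.1% over all probes. Normexp also moved the median change of all probes to -0.22, so the members' median of -0.35 lay 0.13 below it. Over all table rows 47.1% of the calls were rises, and in the exons with both strands 33.6%. Whether the 38.1% in single-strand exons differs from these was not tested. That share ranged from 37.5% to 54.1% with 1 sample left out, and without WT replicate 1 the 54.1% stood beside 55.1% over all rows. At an unadjusted p under 0.05 with a 2-fold change it was 67.3%, and no share over all rows is given for that threshold. Large changes were mostly rises in the whole table too. With an adjusted p under 0.05 and at least 2-fold, 1775 table rows went up and 954 went down. For the single-strand exons these numbers were 26 and 14.

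Rises and falls were split unequally over levels in the table. In the highest of 3 equal classes by mean level, 24 exons rose and 62 fell of 204, in the middle class 23 rose and 43 fell of 203, and in the lowest class 25 rose and 12 fell of 204. Rises were thus 27.9%, 34.8% and 67.6% of the calls, and 45.4%, 46.9% and 56.0% over all table rows in the same ranges of level. With normexp the order was turned, with 17 rises and 32 falls, 2 rises and 30 falls, and 0 rises and 6 falls in the highest, middle and lowest class. In the same order, the median change of the scanner signals was -0.18, -0.06 and 0.31 in the main fit. With normexp it was -0.19, -0.35 and -0.46, so in the middle and lowest class it was larger in size and not shrunk. Over all probes normexp was not split by level. A separate fit of the 38370 rows well above background on all 5 arrays gave 1 rise and 5 falls among 31 exons of the lowest class, and 53 rises and 136 falls among all 430 such exons. Over all rows of that fit there were 7233 rises and 9031 falls, 44.5% rises, beside 28.0% for the 430 exons. In the fit of all rows, probes well above background on all 5 arrays gave 45 rises and 107 falls among the 430 exons, a share of rises of 29.6%, where it was 45.0% among all such rows of the table and 28.3% among such probes of exons with both strands. Probes detected on 1 to 4 arrays gave 25 rises and 9 falls, 73.5% rises, beside 68.4% over all such rows. More probes were detected on the APP/PS1 arrays (69.2%, 76.0% and 77.6% of all spots) than on the WT arrays (68.0% and 66.9%), and the part of this in the rises among dim probes was not tested.

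Plus and minus probes changed about as often. Of the plus probes 22 rose and 48 fell, and of the minus probes 50 rose and 69 fell, so that 29.7% and 31.7% were called. Rises were 31.4% of the plus and 42.0% of the minus calls, and 18.5% and 35.7% among probes detected on all 5 arrays. This order turned without APP/PS1 replicate 1, where the shares were 47.4% and 46.3%, and in the scanner signals without WT replicate 2, where they were 61.0% and 49.3%. In exons with both strands in the table, 31.1% of the plus and 36.2% of the minus calls were rises.

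The largest change belonged to MM9LINCRNAEXON10420+, which was measured in APP/PS1 brain and not above background in WT. Its log2 levels were 2.41, 2.44 and 2.43 in WT and 8.31, 8.31 and 8.20 in APP/PS1. The 3 WT values are the lowest values of their columns in the table, so their small spread is that of a floor and not of a measurement. In the scanner signals it was well above background on all 3 APP/PS1 arrays and neither WT array, at processed signals of 331, 361 and 330 against 3.33 and 3.81, which makes it at least 15.2-fold higher in APP/PS1. The exon passed the filter of at least 2 arrays through its APP/PS1 arrays alone. The limma adjusted p of 0.000112 belongs to the full scanner change of 6.24 (log2), which uses the WT floor signals, and not to the bound. It is therefore no support beyond the detection itself. For such a bound, the mean of the bright genotype is divided by that of the dim one, where each dim array enters with the lowest signal marked as well above background, or with its own if that is higher. Bounds are on the scale of the scanner signals, whose changes can differ from those in the table. With normexp, whose offset shrinks such a change, it was 1.81 (log2) and still passed.

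Several other exons crossed from background to signal. Detected on all 3 APP/PS1 arrays but neither scanned WT array were 23 exons (3.76%, against 3.02 percent of all table rows), of which 14 passed the threshold and 7 had a bound of at least 2-fold. MM9LINCRNAEXON10665- had 4.50, 4.57 and 4.52 in WT and 6.54, 6.22 and 6.18 in APP/PS1, a 3.46-fold change in the table, and in the scanner signals, where its log2 change was 1.96, it was at least 3.78-fold higher. MM9LINCRNAEXON11511+ had 4.58, 3.15 and 3.58 in WT and 6.66, 5.81 and 5.76 in APP/PS1 and was at least 3.13-fold higher in the scanner signals. MM9LINCRNAEXON10124+ had 4.11, 4.62 and 4.35 in WT and 5.67, 5.63 and 5.94 in APP/PS1 and was at least 2.70-fold higher in the scanner signals. The groups of all 3 exons did not overlap, though WT samples of MM9LINCRNAEXON11511+ lay far apart. Their limma adjusted p-values in the table were 0.0036, 0.036 and 0.00769. MM9LINCRNAEXON11511+ lost its call without any 1 of the APP/PS1 replicates (0.0751, 0.0847 and 0.0808), and with normexp, whose offset of 50 is of the size of these probes' signals, the changes of the 3 exons were 0.25, 0.21 and 0.05 (log2) and did not pass.

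The opposite pattern was seen in 2 exons (0.327%, against 0.12 percent of all table rows), both past the threshold. MM9LINCRNAEXON10967+ had 5.01, 4.83 and 5.04 in WT and 3.15, 2.75 and 2.37 in APP/PS1, was not well above background on any APP/PS1 array, and was at least 1.75-fold lower there (limma adjusted p = 0.00733 in the table). MM9LINCRNAEXON10461+ had 5.15, 4.78 and 4.53 in WT and 3.49, 3.75 and 2.78 in APP/PS1 and was at least 1.77-fold lower (limma adjusted p = 0.0327 in the table). WT and APP/PS1 samples did not overlap in either exon. With normexp the changes were -0.82 and -0.74 (log2), the second with a limma adjusted p of 0.0571. MM9LINCRNAEXON10461+ also lost its call without WT replicate 1 (0.138) and without APP/PS1 replicates 1 and 2 (0.0742 and 0.0534).

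Of the 611 exons, 45 rose (7.36%) and 109 fell (17.8%) with groups that did not overlap and signal well above background on at least 2 arrays of each genotype, where 12 percent of all table rows rose and 15 percent fell under the same conditions. Among these, MM9LINCRNAEXON11316+ rose most, from 7.38, 6.48 and 6.60 in WT to 9.07, 9.34 and 9.26 in APP/PS1, a 4.80-fold change (2.26 ± 0.27 SE, log2; limma adjusted p = 0.00872). WT replicate 1 stood above the other WT samples and still far below every APP/PS1 sample. MM9LINCRNAEXON10136+ rose 2.97-fold, from 7.20, 7.01 and 6.97 to 8.70, 8.65 and 8.64 (1.57 ± 0.09 SE; limma adjusted p = 0.0023). MM9LINCRNAEXON11850- rose 2.29-fold, from 7.77, 7.93 and 7.83 to 9.02, 8.98 and 9.07 (1.20 ± 0.07 SE; limma adjusted p = 0.00258). In the last 2 exons the samples of a genotype lay close together beside the size of the change.

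The next rises were about 2-fold. MM9LINCRNAEXON10291- went from 5.72, 5.64 and 5.69 to 7.21, 7.08 and 6.56 (1.26 ± 0.22 SE; limma adjusted p = 0.0185). It lost its call without WT replicate 1 (0.0814) and without APP/PS1 replicate 2 (0.0645), and with normexp its change was 0.34 and did not pass. MM9LINCRNAEXON10035- went from 6.15, 6.43 and 6.59 to 7.68, 7.53 and 7.38 (1.20 ± 0.15 SE; limma adjusted p = 0.00969), or 0.65 with normexp. MM9LINCRNAEXON11819+ went from 8.16, 8.31 and 8.33 to 9.14, 9.41 and 9.48 (1.1 ± 0.13 SE; limma adjusted p = 0.00863), and without WT replicate 1 its adjusted p was 0.051. The brightest of these rises were MM9LINCRNAEXON10990-, from between 10.98 and 11.10 in WT to 11.94, 12.19 and 12.05 (2.06-fold, limma adjusted p = 0.00547), and MM9LINCRNAEXON10348-, from 10.21, 10.20 and 10.24 to 11.33, 11.27 and 11.09 (2.02-fold, limma adjusted p = 0.00565). These 2 bright exons rose with normexp too, by 1.29 and 1.05 (log2).

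Of the falls among exons detected in both genotypes, that of MM9LINCRNAEXON12015- was the largest. It had 9.35, 9.28 and 9.37 in WT and 7.31, 7.03 and 7.16 in APP/PS1, a 4.50-fold lower level (-2.17 ± 0.10 SE, log2; limma adjusted p = 0.00172), and the scanner signals gave the same change of -2.17 (limma adjusted p = 0.00098). MM9LINCRNAEXON10174- had 6.07, 6.08 and 6.20 in WT and 4.49, 4.83 and 4.48 in APP/PS1 (-1.50 ± 0.14 SE; limma adjusted p = 0.00514), or -0.85 with normexp. MM9LINCRNAEXON12072+ had 8.02, 7.84 and 7.82 in WT and 6.30, 6.62 and 6.57 in APP/PS1 (-1.43 ± 0.13 SE; limma adjusted p = 0.00545). WT samples of these 3 exons lay close together and far above every APP/PS1 sample.

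In 2 of the larger falls WT replicate 1 lay apart from the other WT samples. MM9LINCRNAEXON10365- had 8.83, 7.70 and 7.88 in WT and 6.80, 7.11 and 6.99 in APP/PS1 (-1.34 ± 0.33 SE; limma adjusted p = 0.0437). Without WT replicate 1 its change was -0.82 (limma adjusted p = 0.0584), and it also lost its call without WT replicate 3 (0.0561), without any 1 of the APP/PS1 replicates (0.109, 0.101 and 0.113) and in the scanner signals (0.0517). MM9LINCRNAEXON11862- had 10.86, 10.25 and 10.24 in WT and 9.10, 9.53 and 9.45 in APP/PS1 (-1.19 ± 0.24 SE; limma adjusted p = 0.0264). Its call was lost without WT replicate 1, where the change was -0.89 (limma adjusted p = 0.0822), and without any 1 of the APP/PS1 replicates (0.0632, 0.0652 and 0.0742). Neither exon had overlapping groups.

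The remaining named falls were tighter. MM9LINCRNAEXON11914+ had 6.78, 6.76 and 6.66 in WT and 5.49, 5.55 and 5.57 in APP/PS1 (-1.21 ± 0.07 SE; limma adjusted p = 0.00224), or -0.74 with normexp. MM9LINCRNAEXON11779- had 6.37, 6.40 and 6.43 in WT and 5.45, 5.17 and 4.98 in APP/PS1 (-1.19 ± 0.16 SE; limma adjusted p = 0.0101), and without WT replicate 1 its adjusted p was 0.0543. MM9LINCRNAEXON10083+ had 7.99, 8.07 and 8.04 in WT and 6.86, 6.89 and 7.0 in APP/PS1 (-1.11 ± 0.08 SE; limma adjusted p = 0.00319). In each of the 3 exons the gap between the genotypes was wider than the spread within either.

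Against the exons with both strands in the table, the single-strand exons stood close in how often they changed. 29.7% of the 1990 probes of both-strand exons were called, 199 of them rises and 393 falls, beside the 30.9% of single-strand probes. Of the probes detected on every scanned array, 34.9% of both-strand and 35.3% of single-strand probes were called, near the 33.6% of all such rows of the table. The brighter probe of each both-strand exon had a median level of 7.95 and was called in 37.2% of exons, and the dimmer probe had a median of 5.0 and was called in 22.3%. Single-strand probes, at a median level of 6.14, lay between these in level and in share called. The median SD within a genotype was 0.18 (log2) for single-strand probes, 0.17 for both-strand probes and 0.13 for all rows.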

How the data were processed

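The deposited value table holds log2 signals of 6 samples, normalized by the authors in a way not given in the sources used here; for these exons Pearson's r between a column and the log2 processed signal of its scan was at least 0.999 over the 5 scanned arrays. The deposited scanner files hold spot intensity, background-subtracted by the scanner software, which the submitters' processing notes give as Agilent Feature Extraction 11.0.1.1, and the array's build is mm9 per the file headers. Members were the table rows whose spot numbers are mouse lincRNA exon probes (non-control) and whose exon has 1 sign among table rows. Members, lists and tests were chosen with earlier results of these data known.

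Genotypes were compared in R 4.3.3 with limma 3.58.1 (lmFit and eBayes, two-sided, Benjamini-Hochberg over all rows), on the table with WT replicates 2 and 3 averaged, and on log2 processed signals scaled to the 75th percentile of their array, without outlier spots, for probes well above background on at least 2 of 5 arrays. The scripts were tested on simulated data. Named exons are, past the threshold and detected in both genotypes without overlap, the 8 largest rises and 8 largest falls; up to 4 bounds per direction; and the 5 brightest. Alternatives were other scalings, normexp on median spot signals with an offset of 50, filters, a variance trend, a replicate block and leaving out each sample. The number of arrays limits the precision. The planned test between probes of 1 exon was not run, since each exon has 1 probe per strand.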

Additional observations from a re-analysis of the deposited data

Results flagged for a closer look

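Signal from the opposite strand, outside the value table, was detected more often on APP/PS1 arrays than on WT arrays. 66 of the 611 opposite-strand probes were well above background on at least 1 APP/PS1 array and no scanned WT array, 13 showed the reverse, and 0 were detected in both genotypes. These counts set 3 APP/PS1 arrays against 2 WT arrays. By array, 7 and 6 were detected on WT arrays 1 and 2 and 9, 29 and 32 on APP/PS1 arrays 1, 2 and 3. Over all spots, 68.0% and 66.9% were detected on the WT arrays and 69.2%, 76.0% and 77.6% on the APP/PS1 arrays. No opposite-strand probe was detected on all 3 APP/PS1 arrays, and 4 were on 2 of them. All 611 lie outside the table, so their lack of detection on 3 or more arrays, or in both genotypes, is tied to how they were chosen. The highest was the opposite strand of MM9LINCRNAEXON10957+, at a processed signal of 3523 on APP/PS1 array 2 and 3.73, 3.81, 4.44 and 3.81 on the other arrays. The part of the higher detection on the APP/PS1 arrays in these counts was not tested.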

How the results depend on the processing

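Chosen after seeing the data were the restriction to 532 exons with an undetected opposite strand (166 calls), and the shares of rises and named exons under other scanner scalings. The table's 189 calls changed by less than 1.5 times with other filters, variance models or WT replicates 2 and 3 apart (249). Median centring, the only other scaling of the table, could not change them, because every sample already had a median of 7.06. They were 49 at an unadjusted p under 0.05 with a 2-fold change and 61 to 186 with 1 sample left out. In the scanner signals the count of 187 was 58 at that threshold, 87 with normexp, and 92 to 128 with 1 array left out. Replicate numbers did not pair samples (correlations of deviations 0.0505, -0.0775 and 0.0115). A replicate block in limma gave 215 calls in the table with WT replicates 2 and 3 apart, beside 15417 over all 48436 rows. In the scanner signals it gave 0 calls among these exons and 0 over all 45630 probes, with a smallest adjusted p of 0.0501. APP/PS1 replicate 3 was alone in its block there and added nothing to the comparison. Few arrays were thus left to estimate the spread, and the part of this in the 0 calls was not tested. In that fit, 218 exons and 15304 of all probes had an unadjusted p under 0.05. MM9LINCRNAEXON11545+, not past the threshold, changed sign to -0.030 after median centring of the scanner signals, and MM9LINCRNAEXON11553-, not past it either, ranged from -0.3775 to 0.0825 (without APP/PS1 replicate 1) with 1 sample left out; the cause was not tested. Where 1 WT sample was left, its spread was taken from APP/PS1. Exons with 1 strand on the array could not be used as an alternative, because the array's only such exon is not in the table. Low signal over background limits the 167 exons detected on 1 to 4 scanned arrays and the 14 on none.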

Other observations

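Exon numbers that follow each other did not change together as a rule. Of 207 pairs of members with consecutive numbers, 115 shared their sign (55.6%, where the counts of the signs alone would give 52.6%). The log2 changes of these 115 same-sign pairs had a Pearson correlation of -0.10 and a Spearman correlation of -0.09 across pairs, which share arrays and in part exons. In 10 of the pairs both exons were called, 5 in the same direction and 5 in opposite directions. Whether consecutive numbers belong to 1 transcript is not stated in the files used here.

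Of 14 runs of at least 3 consecutive exons with 1 sign, 1 had every exon called, chosen here after its values were seen. MM9LINCRNAEXON10643- had 9.73, 9.84 and 9.79 in WT and 10.36, 10.27 and 10.32 in APP/PS1. MM9LINCRNAEXON10644- had 4.85, 5.10 and 4.86 in WT and 5.56, 5.54 and 5.37 in APP/PS1. MM9LINCRNAEXON10645- had 12.73, 12.88 and 12.89 in WT and 13.26, 13.31 and 13.30 in APP/PS1. The exons rose by similar amounts, 0.54, 0.58 and 0.48 (log2; limma adjusted p = 0.0098, 0.0167 and 0.0155), at very different signal. All 3 calls were lost without WT replicate 1 (0.0537, 0.0801 and 0.0654), that of MM9LINCRNAEXON10644- also without APP/PS1 replicates 1 and 2 (0.0512 and 0.0604) and that of MM9LINCRNAEXON10645- without APP/PS1 replicates 2 and 3 (0.0577 and 0.0568). With normexp MM9LINCRNAEXON10644- changed sign, to -0.24. In the run of 7 minus exons from 10040 to 10046, the longest, 1 rose and 1 fell.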
